A study of Mus musculus with 6 samples.

Results

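The genes described are 42 mouse genes of ribosome biogenesis, named by symbol and looked up in the deposited gene table. A row was found for 41 of the 42 among 37620 genes, and Noc2l was not analysed here. All 41 passed the filter on low counts. They were read in B cells isolated from spleens of C57Bl/6 mice aged 4 months and kept in culture with IL-4 (12.5 µg/ml, the unit as labelled) and an antibody to CD40 (1 µg/ml), which together drive B cell division and class switching. The cells were spin-infected with retrovirus at 24 h and again at 48 h, and cells carrying the mCherry reporter were sorted at 96 h. Cells given pMIR-Sox2, a vector that adds Sox2, an HMG-box transcription factor of stem and neural progenitor cells, form the first group, and cells given the control vector pMIR are the control. Each group has 3 libraries of total RNA. The culture, the infections and the sort were the same for both groups, and the labels do not state whether replicates came from separate mice, so a p-value here covers the variation among the 6 libraries and no wider one. In pMIR-Sox2 replicate 1, ribosomal protein genes lay lower than in the other libraries, and results without that library are given beside those it touches.

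Ribosome biogenesis begins in the nucleolus, where RNA polymerase I transcribes a long precursor that holds all but one of the ribosomal RNAs. Small nucleolar ribonucleoproteins (snoRNPs) modify the precursor, those of the box C/D class by methylating riboses and those of the box H/ACA class by making pseudouridine. The small subunit processome and the large subunit assembly factors then cleave, fold and export the pre-ribosomal particles. The machinery expands in lymphocytes that leave rest to grow and divide, and many of its genes are known targets of the transcription factor MYC.

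Of the 41 genes read, 40 fell in pMIR-Sox2 cells, 0 rose and 1, Ddx10, did not pass an adjusted p of 0.05 (edgeR's quasi-likelihood test, Benjamini-Hochberg adjustment over all genes tested). Over all 12898 genes tested other than Sox2, 20.0% fell and 23.2% rose. Among the 6274 genes with a mean level at least that of the least expressed of the biogenesis genes, 25.2% fell. No biogenesis gene was higher at an unadjusted p under 0.05 in edgeR (0 of 41), and neither DESeq2 (Wald test) nor limma-voom called a rise (0 of 41 by each). The median log2 fold change of the 41 genes, pMIR-Sox2 over pMIR, was −0.81, which leaves 57.1% of the pMIR level, against a median of −0.02 over all genes tested. The 41 fold changes ran from −1.35 for Ppan to −0.28 for Ddx10. A fall of more than 1.5-fold was seen in 34 genes, against 13.8% of all genes tested, and one of more than 2-fold in 6 genes, against 5.41%. All 3 pMIR-Sox2 libraries lay below all 3 pMIR libraries for each of the 41 genes, including Ddx10, against 27.6% of all genes tested. In bulk RNA, fewer cells of a type and less RNA per cell cannot be told apart.

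**Figure D1:**
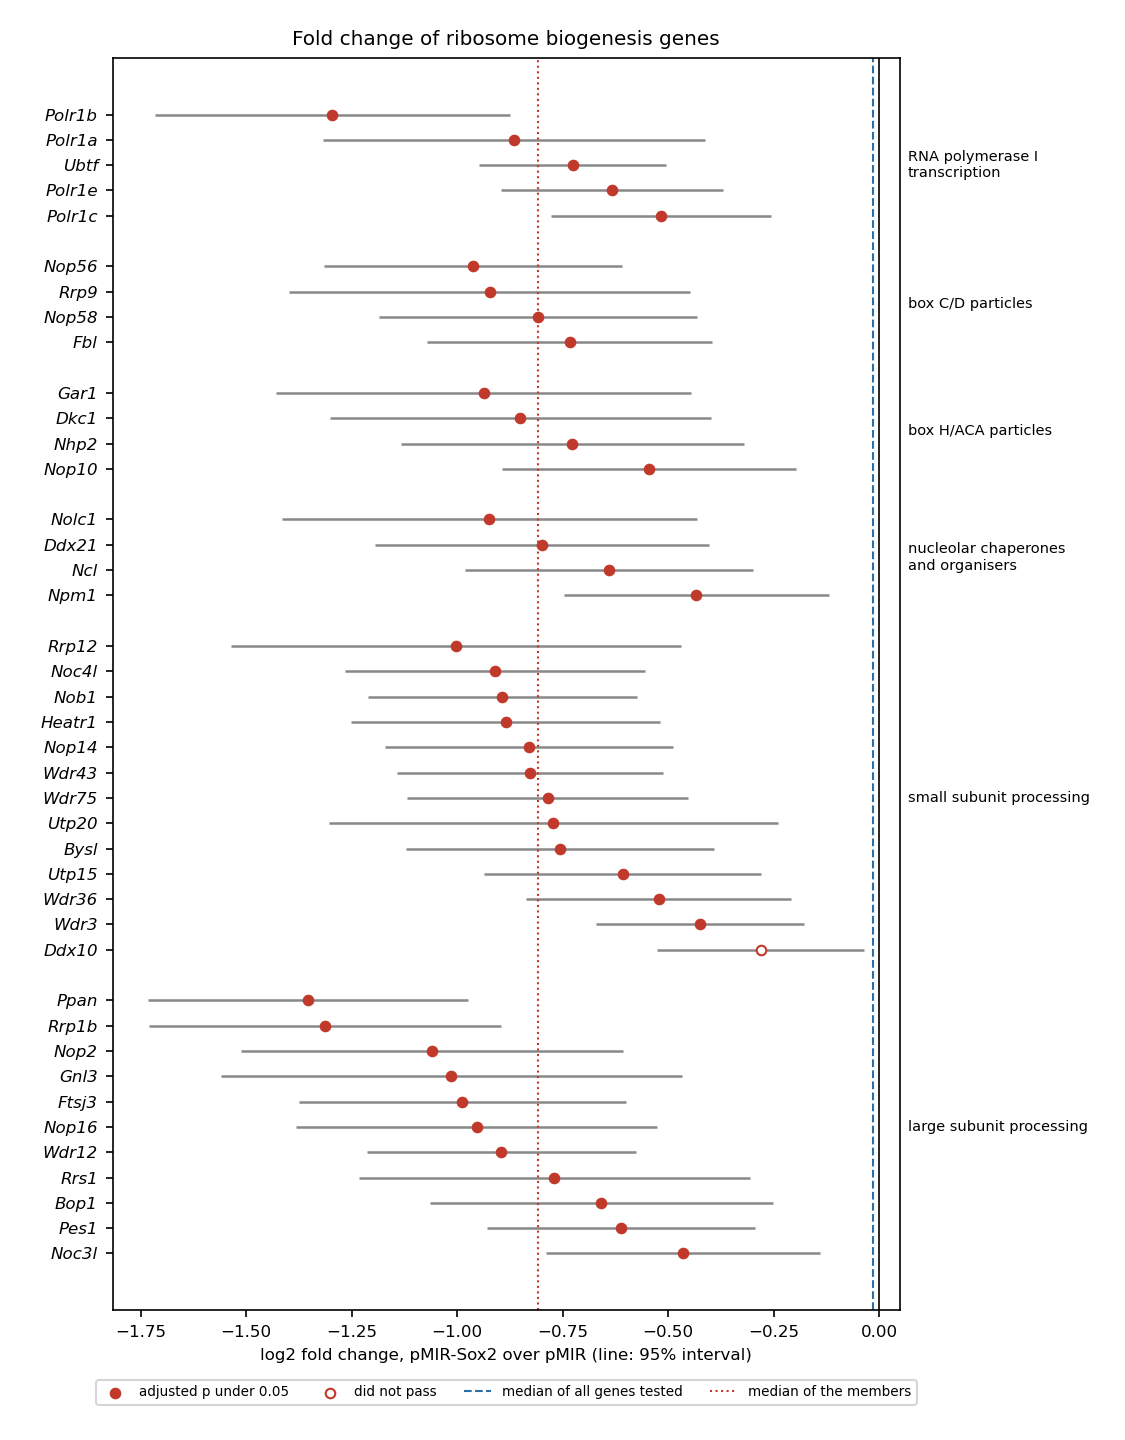
Log2 fold change of each of the 41 genes, pMIR-Sox2 over pMIR, with its 95% interval from edgeR's quasi-likelihood fit (3 libraries per group), ordered by step of ribosome biogenesis. All points lie below 0, from −1.35 for Ppan to −0.28 for Ddx10, against a median of −0.02 over all genes tested.

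All 5 genes of RNA polymerase I transcription fell, with a median log2 fold change of −0.73. Levels here are CPM (read counts scaled to a common library size with TMM factors), given for replicates 1 to 3 in that order. Polr1b, the second-largest subunit, which forms the active centre together with Polr1a, stood at 27.8, 19.2 and 26.6 CPM in pMIR-Sox2 cells, against 72.0, 46.7 and 61.7 CPM in pMIR cells. Its groups were well apart, and it fell by one of the widest margins of the 41 (log2 fold change −1.30 ± 0.19 (SE), adjusted p = 0.000675). Ubtf, the HMG-box protein that covers active ribosomal DNA, stood at 139.7, 122 and 131 CPM in pMIR-Sox2 cells and 219, 226 and 205 CPM in pMIR cells. Its libraries lay close together within each group, and it fell by 0.73 on the log2 scale (SE 0.10, adjusted p = 0.000503). Polr1a, the largest subunit, read 64.2, 38.3 and 64.5 CPM in pMIR-Sox2 cells, against 116, 86.2 and 102 CPM in pMIR cells (−0.87 ± 0.20). Replicate 2 was the low library of both groups. Polr1e, a subunit specific to polymerase I, fell less (−0.63 ± 0.12), and Polr1c, a subunit shared with RNA polymerase III, fell least of the 5 (−0.52 ± 0.12).

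The 4 genes of box C/D snoRNPs read here all fell, with a median of −0.87. Nhp2l1, another protein of the particle, was counted with the other snoRNP genes and fell less than these 4 (−0.44 ± 0.11, adjusted p = 0.0114). Nop56, a scaffold protein of the particle, read 162, 126 and 194 CPM in pMIR-Sox2 cells, against 339, 281 and 318 CPM in pMIR cells. The highest pMIR-Sox2 library, replicate 3, stayed below the lowest pMIR library, replicate 2, and the fall was 0.96 on the log2 scale (SE 0.16, adjusted p = 0.00131). Fbl, fibrillarin, the methyltransferase of the particle, read 68.1, 55.9 and 82.2 CPM in pMIR-Sox2 cells and 128, 101 and 113 CPM in pMIR cells (−0.73 ± 0.15, adjusted p = 0.00417). Its pMIR-Sox2 libraries spread more widely, relative to their level, than its pMIR libraries. Nop58, the partner of Nop56, and Rrp9, a protein of the U3 particle that acts in small subunit cleavage, had fold changes of −0.81 ± 0.17 and −0.92 ± 0.21 and fell as well.

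The core proteins of box H/ACA snoRNPs also fell, 4 of 4, with a median of −0.79. Dkc1, dyskerin, the pseudouridine synthase, read 91.3, 62.8 and 112 CPM in pMIR-Sox2 cells, against 171, 133 and 175 CPM in pMIR cells (−0.85 ± 0.20, adjusted p = 0.00852). Gar1, which completes the mature particle, read 39.3, 27.2 and 51.4 CPM in pMIR-Sox2 cells and 85.8, 61.3 and 78.5 CPM in pMIR cells (−0.94 ± 0.22, adjusted p = 0.00803). In both genes replicate 2 was the lowest library of each group. Nop10, a small protein that contacts dyskerin, read 42.9, 34.1 and 52.3 CPM in pMIR-Sox2 cells and 67.8, 56.4 and 64.5 CPM in pMIR cells, and the gap between the highest pMIR-Sox2 and the lowest pMIR library was narrow (−0.55 ± 0.15, adjusted p = 0.0188). Its adjusted p rose above 0.05 without pMIR-Sox2 replicate 1 and without pMIR replicate 1 or 3, where the log2 fold change stayed below 0. Nhp2, an RNA-binding core protein, fell (−0.73 ± 0.18).

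The nucleolar chaperones and organisers held the most abundant transcripts of the 41, and all 4 fell, with a median of −0.72. Npm1, nucleophosmin, a histone and ribosome chaperone of the outer nucleolus, read 1408, 1501 and 1905 CPM in pMIR-Sox2 cells, against 2273, 2032 and 2197 CPM in pMIR cells (−0.43 ± 0.14, adjusted p = 0.0314). It was one of the smaller falls. Its call was lost without pMIR-Sox2 replicate 1 or 2 and without pMIR replicate 1 or 3. Ncl, nucleolin, which binds nascent precursor RNA, read 1424, 1203 and 1762 CPM in pMIR-Sox2 cells and 2381, 2118 and 2345 CPM in pMIR cells (−0.64 ± 0.15, adjusted p = 0.00822). Ddx21, an RNA helicase that acts with polymerase I and II, read 263, 188 and 296 CPM in pMIR-Sox2 cells and 498, 374 and 428 CPM in pMIR cells (−0.80 ± 0.18, adjusted p = 0.00584). Nolc1, a chaperone of snoRNPs, fell by more than the other genes of this step (−0.92 ± 0.22). Its pMIR-Sox2 libraries were at 139, 88.5 and 152 CPM, against 288, 187 and 246 CPM in pMIR.

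**Figure D2:**
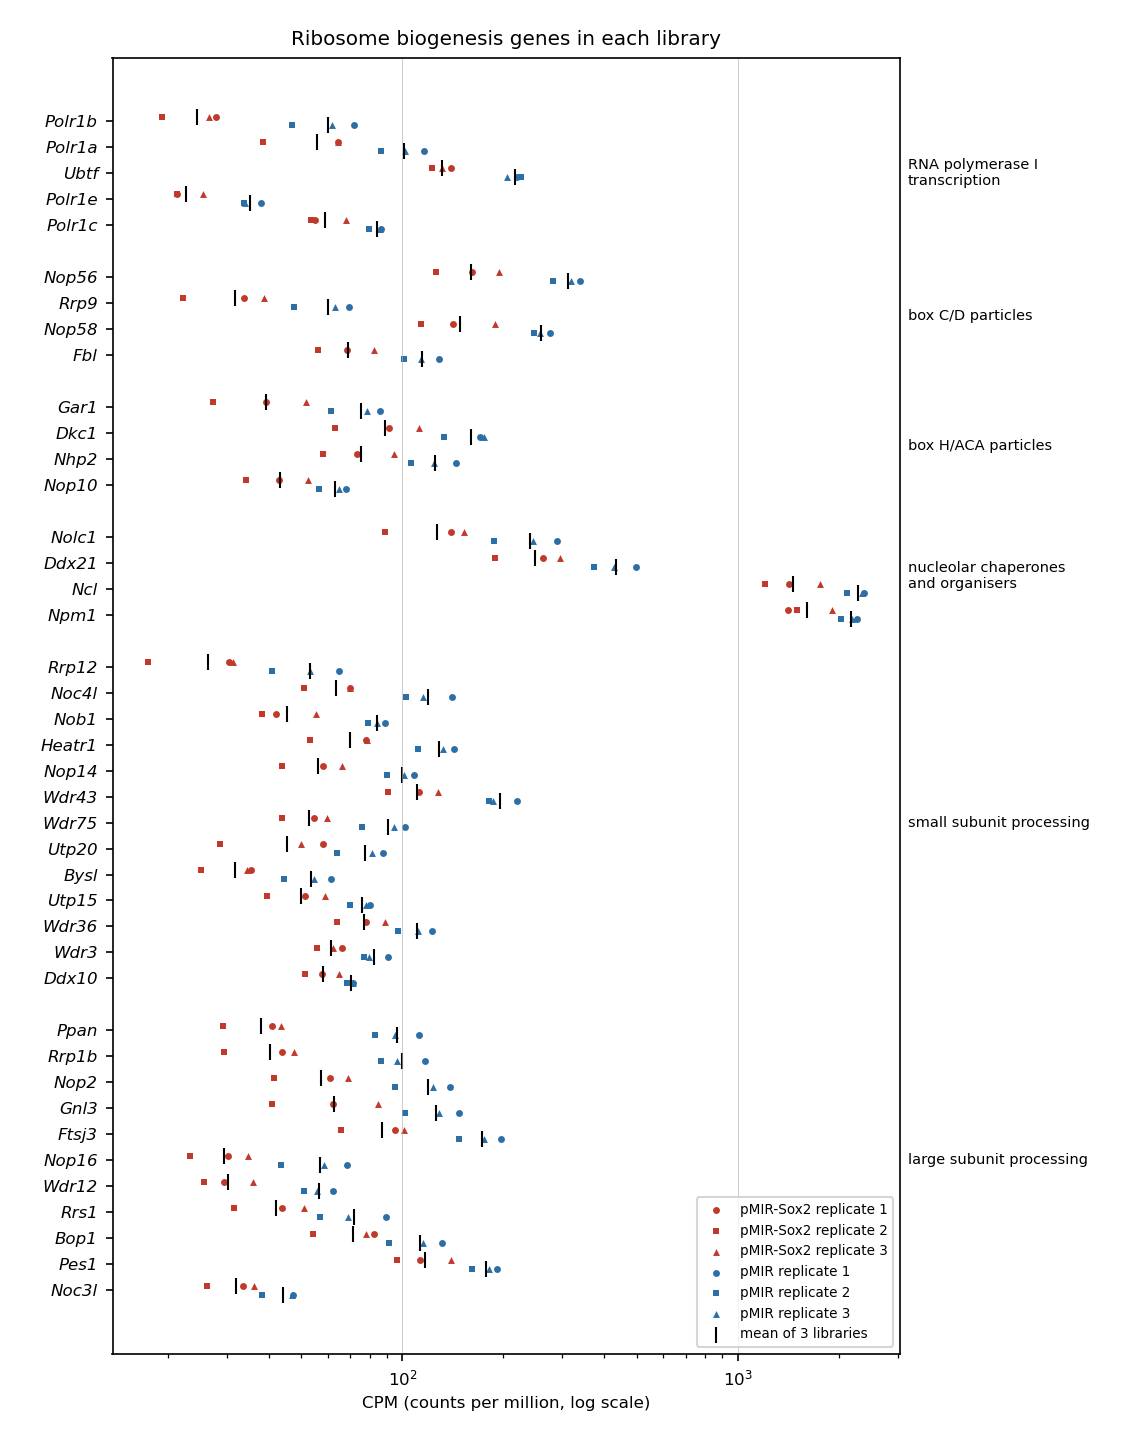
CPM of each of the 41 genes in each library on a log axis, grouped by step, with pMIR-Sox2 and pMIR libraries marked apart. In every gene the 3 pMIR-Sox2 points lie below the 3 pMIR points, over a range from 17.5 CPM (Rrp12) to 2381 CPM (Ncl).

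Of 13 genes of small subunit processing, 12 fell and Ddx10 did not pass, with a median of −0.79. Nob1, the endonuclease that makes the last cut at the end of the small subunit RNA, read 42.1, 38.2 and 55.4 CPM in pMIR-Sox2 cells, against 88.8, 78.8 and 84.2 CPM in pMIR cells (−0.89 ± 0.14, adjusted p = 0.00111). It had the lowest adjusted p of the step. Noc4l, whose yeast counterpart binds Nop14, read 69.8, 50.9 and 69.8 CPM in pMIR-Sox2 cells and 141, 102 and 115 CPM in pMIR cells (−0.91 ± 0.16, adjusted p = 0.00182). Nop14 itself, a processome component, read 58.2, 43.8 and 66.2 CPM in pMIR-Sox2 cells and 108, 89.7 and 101 CPM in pMIR cells (−0.83 ± 0.15, adjusted p = 0.00236).

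The UTP-A subcomplex binds the precursor as it is transcribed. Its 4 genes among the 41 fell by 0.61 to 0.88 on the log2 scale. Cirh1a, a UTP-A gene outside the 41, fell as well (−0.87). Wdr43 read 112, 90.8 and 128 CPM in pMIR-Sox2 cells, against 219, 181 and 186 CPM in pMIR cells (−0.83 ± 0.14, adjusted p = 0.00158). Heatr1 read 77.7, 53.0 and 78.4 CPM in pMIR-Sox2 cells and 142, 111 and 133 CPM in pMIR cells (−0.88 ± 0.16), Wdr75 changed by −0.79 ± 0.15 and Utp15 by −0.61 ± 0.15. The UTP-B genes among the 41, Wdr3 (−0.43 ± 0.11) and Wdr36 (−0.52 ± 0.14), had smaller fold changes than the 4 UTP-A genes of the 41. Both lost their call without pMIR replicate 1. UTP-B genes outside the 41 ranged more widely: Pwp2 (−1.02), Utp18 (−0.85) and Utp6 (−0.50) fell, and Tbl3 (−0.31) did not pass. Whether the subcomplexes differ was not tested. Rrp12, which in yeast serves export of pre-ribosomes, had the step's largest fall (−1.003 ± 0.24) and one of the lowest levels, 30.5, 17.5 and 31.3 CPM in pMIR-Sox2 cells against 64.8, 40.8 and 53.2 CPM in pMIR cells. Bysl, a factor of late small subunit particles, and Utp20, a large scaffold protein, fell by 0.76 and 0.77 on the log2 scale.

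Ddx10, a helicase whose yeast counterpart frees a snoRNA from the precursor, read 57.4, 51.2 and 64.9 CPM in pMIR-Sox2 cells, against 71.1, 68.5 and 71.2 CPM in pMIR cells. The groups did not overlap, but pMIR-Sox2 replicate 3 came within a few CPM of the lowest pMIR library. The log2 fold change was −0.28 ± 0.11, with a 95% interval of −0.53 to −0.04 and an adjusted p of 0.0627. With the replicate number as a block its adjusted p was 0.0213, and without pMIR-Sox2 replicate 3 it was 0.0193.

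The 11 genes of large subunit processing all fell, with a median of −0.95, or 51.6% of the pMIR level, the lowest median of the 6 steps. Whether steps differ was not tested. Ppan, a homologue of the yeast large subunit factor Ssf1, read 40.8, 29.2 and 43.5 CPM in pMIR-Sox2 cells, against 112, 82.7 and 95.3 CPM in pMIR cells (−1.35 ± 0.17, adjusted p = 0.000322). The highest pMIR-Sox2 library, replicate 3, lay far below the lowest pMIR library, replicate 2. Rrp1b, a nucleolar protein related to yeast Rrp1, read 43.7, 29.4 and 47.5 CPM in pMIR-Sox2 cells and 117, 86.1 and 96.5 CPM in pMIR cells (−1.31 ± 0.18, adjusted p = 0.000619). Nop2, a methyltransferase of the large subunit RNA, read 60.6, 41.3 and 69.0 CPM in pMIR-Sox2 cells and 138, 94.8 and 123 CPM in pMIR cells (−1.06 ± 0.20). Gnl3, nucleostemin, a GTPase that shuttles between nucleolus and nucleoplasm, read 61.9, 40.8 and 84.5 CPM in pMIR-Sox2 cells and 147, 102 and 129 CPM in pMIR cells (−1.01 ± 0.24). Its pMIR-Sox2 libraries spread widely, with replicate 2 low and replicate 3 high.

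The PeBoW complex, which is needed to remove a spacer from the large subunit precursor, fell in its 3 genes. Pes1, the mouse counterpart of yeast Nop7, read 113, 96.7 and 139.6 CPM in pMIR-Sox2 cells, against 191, 161 and 181 CPM in pMIR cells (−0.61 ± 0.14, adjusted p = 0.00733). Bop1 (−0.66 ± 0.18) and Wdr12 (−0.90 ± 0.14) fell as well, Wdr12 by most of the complex. Ftsj3, a methyltransferase related to yeast Spb1, fell by 0.99, Nop16 by 0.95, Rrs1, which in yeast helps to load a small RNA-protein particle, by 0.77, and Noc3l, a factor of early large subunit particles, by 0.47, all on the log2 scale. Bop1 and Rrs1 lost their call without pMIR replicate 1, and Noc3l lost its call with library totals only and in 4 of the 6 fits that left out a library.

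Compared per kilobase of coding length, levels spanned a wide range. Npm1 was highest, at 1832 CPM per kb in pMIR-Sox2 cells and 2474 CPM per kb in pMIR cells (group means), followed by Ncl at 690 CPM per kb in pMIR-Sox2 and 1076 CPM per kb in pMIR. Next came Nop10 and Nhp2, whose coding lengths of 192 and 459 bases make the measure too high because reads in untranslated parts are counted too. Utp20 was lowest, at 5.42 CPM per kb in pMIR-Sox2 and 9.27 CPM per kb in pMIR, with Rrp12 and Polr1b next above it in pMIR-Sox2 cells.

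The genes ordered the libraries alike. In pMIR-Sox2 cells replicate 2 was the lowest of its group for 40 of 41 genes and replicate 3 the highest for 34. In pMIR cells replicate 2 was the lowest for 40 of 41 and replicate 1 the highest for 38. The order was not counted over all genes tested, so it may not be particular to these genes. The summed level of the 41 genes was 5618, 4801 and 6812 CPM in pMIR-Sox2 replicates 1 to 3 (5744 ± 1012, SD, n = 3), against 9932, 8269 and 9284 CPM in pMIR replicates 1 to 3 (9162 ± 838, n = 3), a ratio of 0.627. The highest pMIR-Sox2 sum thus lay below the lowest pMIR sum. Most of each sum came from the 4 nucleolar chaperones and organisers, with means of 3444 CPM in pMIR-Sox2 and 5122 CPM in pMIR libraries. Set against the mean of the pMIR libraries, the median gene was at −0.75, −1.19 and −0.59 on the log2 scale in pMIR-Sox2 replicates 1 to 3. A pMIR library set against the other pMIR libraries gave medians of 0.25, −0.31 and 0.03. Between libraries of the same number, pMIR-Sox2 over pMIR, the medians were −0.91, −0.998 and −0.61.

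**Figure D3:**
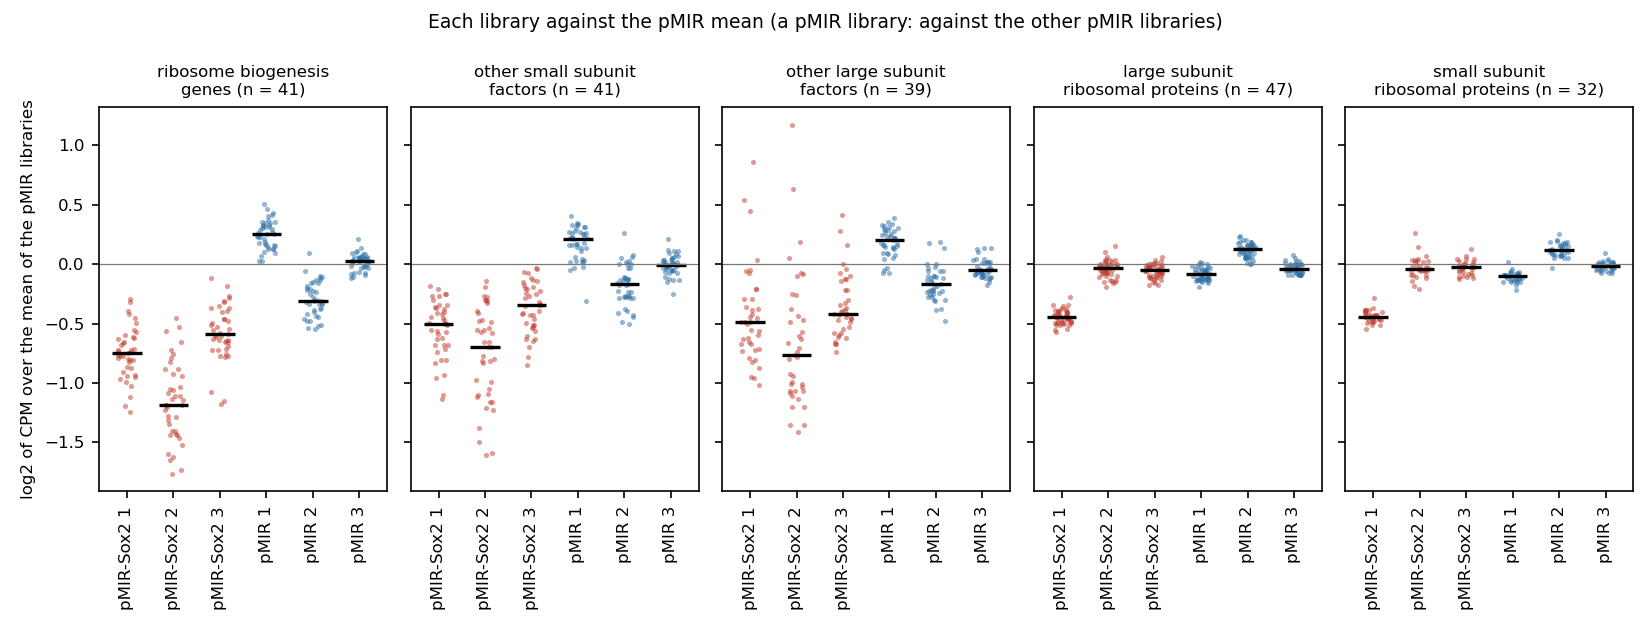
Log2 ratio of each gene in each library to the mean of the pMIR libraries (for a pMIR library, to the mean of the other pMIR libraries), for the 41 biogenesis genes, other small and large subunit factors and the ribosomal protein genes, where each point is a gene and the bar is the median. The medians of the biogenesis genes are −0.75, −1.19 and −0.59 in pMIR-Sox2 replicates 1 to 3, whereas the ribosomal protein genes are near −0.44 in replicate 1 and near −0.04 in replicates 2 and 3.

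The transcripts of the proteins of the finished ribosome did not share the calls. Of 47 large subunit and 32 small subunit ribosomal protein genes, 0 rose and 0 fell in edgeR, against the 20.0% of all genes that fell. In that fit the log2 fold change was below 0 for 47 of 47 and 31 of 32, against 6612 of 12898 genes tested. At an unadjusted p under 0.05, 2 large subunit genes and 0 small subunit genes were lower in edgeR, and DESeq2 and limma-voom called 0 in either list. With the replicate number as a block, 3 large subunit genes fell, among them Rpl10a (−0.31) and Rpl28 (−0.28), and 0 small subunit genes did. Their median log2 fold changes were −0.17 and −0.16, and −0.04 and −0.03 without pMIR-Sox2 replicate 1. That library stood apart: all 79 genes lay below all pMIR libraries there, against 27 of 79 in replicate 2 and 27 of 79 in replicate 3. Their summed level was 64740, 85100 and 84790 CPM in pMIR-Sox2 replicates 1 to 3, against 84350, 92450 and 86800 CPM in pMIR replicates 1 to 3. Without pMIR-Sox2 replicate 1, 37 of the 41 biogenesis genes fell, with a median of −0.84. Whether the fold changes of biogenesis and ribosomal protein genes differ was not tested.

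Further genes of the pathway were taken from lists of textbook members, and most of those called fell. Of 41 other small subunit factors, 31 fell, 0 rose and 10 did not pass (median −0.52), among them Tsr1, a late small subunit factor, at 54.5 ± 13.6 CPM in pMIR-Sox2 cells and 121 ± 14.6 CPM in pMIR cells (SD, n = 3 each, log2 fold change −1.15), and Rrp7a (−0.69). Of 39 other large subunit factors, 27 fell, 3 rose and 9 did not pass (median −0.56). Nle1 fell (−1.03), as did Rpf2 (−0.80), the yeast partner of Rrs1. The 3 that rose were Tex10, a scaffold of the Rix1 complex, Gnl2, a nucleolar GTPase, and Gnl3l, a relative of nucleostemin. Tex10 stood at 124, 106 and 91.0 CPM in pMIR-Sox2 cells, against 73.0, 62.3 and 69.8 CPM in pMIR cells (0.65, adjusted p = 0.00363). Gnl2 stood at 144, 239 and 118 CPM in pMIR-Sox2 cells and 112, 103 and 102 CPM in pMIR cells, with pMIR-Sox2 replicate 2 far above the rest, and its call (0.66, adjusted p = 0.0413) was lost under 8 of 12 alternative settings. The call of Gnl3l (0.34, adjusted p = 0.0475) was lost without pMIR-Sox2 replicate 1 and without each pMIR replicate in turn. In those same fits the list's rises numbered 1.

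Of 9 other RNA polymerase I subunits and factors tested, 4 fell and 5 did not pass (median −0.38). Cd3eap, a polymerase I subunit, stood at 10.3, 6.92 and 14.3 CPM in pMIR-Sox2 cells and 27.3, 20.5 and 20.4 CPM in pMIR cells (−1.12), and Rrn3, the initiation factor that responds to growth signals, changed by −0.53. The falls numbered 7 once the replicate number was a block. They numbered 2 under scaling by library totals alone, without pMIR-Sox2 replicate 1 and without pMIR replicate 1. Of 9 other snoRNP subunits and assembly factors, 5 fell and 4 did not pass (median −0.44), with Znhit6 (−0.80) and Nufip1 (−0.58), both assembly factors of box C/D particles, lowest in adjusted p. Of 13 RNA exosome genes, which trim precursor ends, 6 fell, among them Exosc1 (−0.93) and Exosc2 (−0.92), and 7 did not pass (median −0.31). Exosome falls numbered 9 with the replicate block. With 1 library left out they ran from 4 (pMIR replicate 1, pMIR replicate 3 or pMIR-Sox2 replicate 2) to 8 (pMIR-Sox2 replicate 3). Host transcripts of small nucleolar RNAs fell in 4 of 8 tested genes (median −0.52), with Snhg1 at 101 ± 14.6 CPM in pMIR-Sox2 cells and 169 ± 5.61 CPM in pMIR cells (−0.74). That count was 2 with library totals only, without pMIR-Sox2 replicate 1 or 2 and without pMIR replicate 2 or 3, and 1 without pMIR replicate 1.

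Of 21 genes of RNA polymerase III and its factors, 6 fell, 3 rose and 12 did not pass (median −0.16). Polr3e (−0.76), a subunit, fell, whereas Gtf3c3 (0.53), a subunit of the factor that binds tRNA genes, and Polr3k (0.45) rose, as did Maf1 (0.51), the repressor of the enzyme, whose call was lost without pMIR replicate 1 or 3. The falls numbered 2 with library totals only and without pMIR-Sox2 replicate 2, pMIR replicate 1 or pMIR replicate 3, and 3 with no filter. Of 13 RNA polymerase II subunits, 4 fell and 9 did not pass (median −0.26). Those that fell included Polr2f (−0.70) and Polr2e (−0.58), both of which all 3 polymerases share. The falls numbered 7 with the replicate block and 2 without pMIR replicate 1. Differences between these lists were not tested, and the shares are read beside the 20.0% of all genes that fell.

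**Figure D4:**
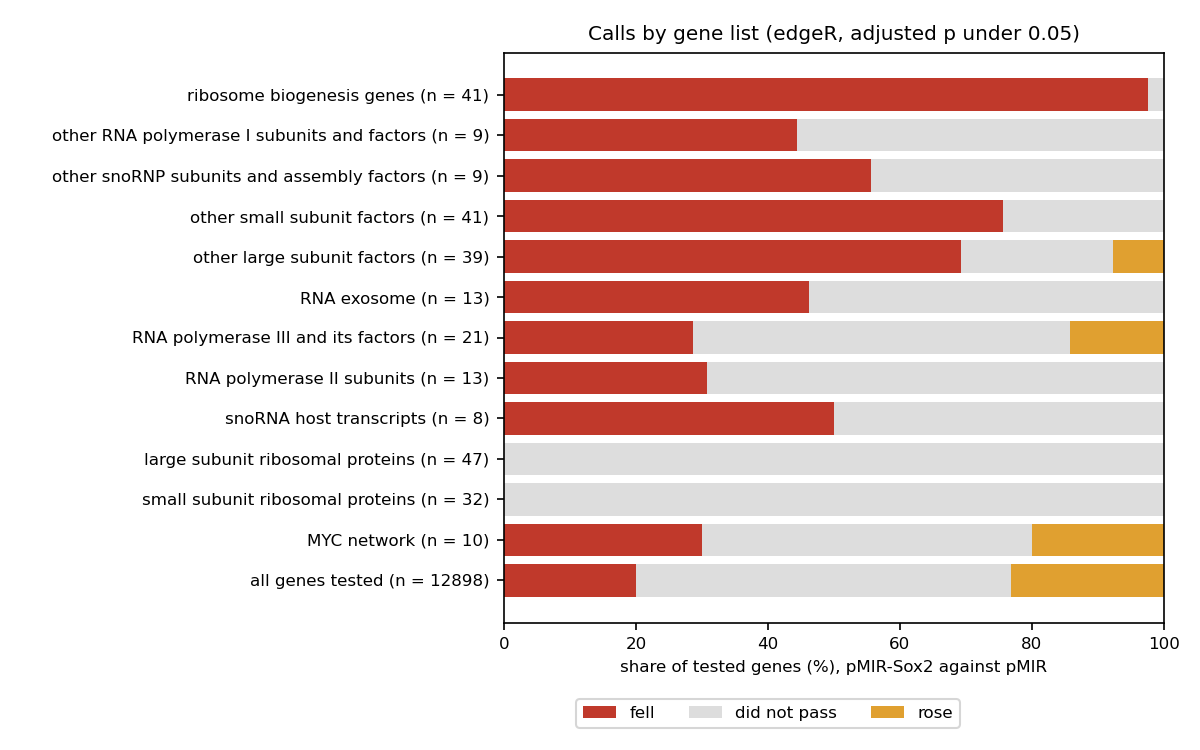
Share of tested genes that fell and that rose (edgeR adjusted p under 0.05) as horizontal bars for the 41 biogenesis genes, each further list and all genes tested (20.0% fell and 23.2% rose), with the number of genes tested beside each name. Falls fill nearly the whole bar of the biogenesis genes, and the ribosomal protein lists hold no call.

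Myc stood at 209, 176 and 244 CPM in pMIR-Sox2 cells, against 508, 335 and 398 CPM in pMIR cells (−0.98 ± 0.17, adjusted p = 0.00194). Mxd4, a protein that pairs with MAX in place of MYC and represses, stood at 198, 267 and 157 CPM in pMIR-Sox2 cells and 87.2, 102 and 91.1 CPM in pMIR cells (1.15 ± 0.18, adjusted p = 0.000987). Of 10 tested genes of the MYC network, 3 fell, 2 rose and 5 did not pass (median 0.02). The rise of Mxd3 (0.57, adjusted p = 0.0474) was lost without pMIR-Sox2 replicate 1 or 3 and without pMIR replicate 1 or 3. The part of Myc or Mxd4 in the fall of the biogenesis genes was not tested.

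Promoters of the genes were read for letters of known sites, since the genes moved together. RefSeq windows on GRCm38.p6, from 250 bases before to 50 after the annotated start, were found for 35 of the 41 genes, and a gene with several starts counted once. CACGTG, the E-box that MYC and MAX bind, reads the same on both strands and was in the windows of 4 of the 35 genes (11.4%), against 12.1% of 8681 tested genes with a window and 8.09% of 27025 genes with a window in all. The 4 genes were Nop2, Wdr43, Utp20 and Pes1. CACGTG was in 9 of 32 other small subunit factors with a window (28.1%) and 7 of 31 other large subunit factors (22.6%). It was in 2 of 9 other polymerase I genes (22.2%) and 0 of 6 other snoRNP genes. Ribosomal protein genes held it in 5 of 34 (large subunit) and 1 of 23 (small subunit). Whether these shares differ was not tested, and boxes outside the windows were not read. CACGCG, an E-box variant, was found on either strand in 13 of 35 genes (37.1%), against 20.5% of tested genes and 10.5% of all. It was in 5 of 10 RNA polymerase II subunits, 3 of 6 other snoRNP genes and 5 of 15 polymerase III genes. Other large subunit factors held it in 11 of 31, other small subunit factors in 10 of 32 and exosome genes in 3 of 10. Other polymerase I genes held it in 1 of 9, and ribosomal protein genes in 5 of 34 (large subunit) and 5 of 23 (small subunit). Whether the CACGCG shares differ was not tested. The SOX core, CATTGT or CTTTGT on either strand, was found in 8 of 35 (22.9%), against 23.3% of tested genes and 31.7% of all. These matches are descriptions, and no binding was measured.

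The stretches printed here show where such boxes lie in 4 of the genes. Each runs from 100 bases before the annotated start to 30 bases from it, 5′ to 3′ on the plus strand, which is the strand of all 4 genes, with the box in capitals. Nop2 (chr6:125131783-125131912) and Wdr43 (chr17:71616115-71616244) hold CACGTG within the stretch, 60 bases before and 17 after the start, counted to the box's first base as printed. They had the lowest fold changes with that box in their steps. Ppan (chr9:20888075-20888204) and Nolc1 (chr19:46075747-46075876) hold CACGCG on the minus strand, printed as CGCGTG, 9 bases after and 25 before the start. Both were chosen after their values were seen, as the largest falls with that variant inside the stretch.
Nop2: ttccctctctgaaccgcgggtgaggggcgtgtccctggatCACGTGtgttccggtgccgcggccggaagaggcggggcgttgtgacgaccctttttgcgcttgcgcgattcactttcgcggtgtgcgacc
Wdr43: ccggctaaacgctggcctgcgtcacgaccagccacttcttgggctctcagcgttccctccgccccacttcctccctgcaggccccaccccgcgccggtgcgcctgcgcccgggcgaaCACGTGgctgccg
Ppan: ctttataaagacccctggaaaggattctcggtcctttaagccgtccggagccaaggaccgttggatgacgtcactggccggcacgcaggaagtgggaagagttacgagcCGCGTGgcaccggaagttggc
Nolc1: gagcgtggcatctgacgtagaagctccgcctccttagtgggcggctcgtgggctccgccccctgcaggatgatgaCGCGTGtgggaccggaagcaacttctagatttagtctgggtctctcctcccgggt

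Some counts could hold reads of other genes. In the GENCODE annotation (M21), 17 of the 41 genes share exon bases with another gene, and 3 share over 5% of theirs: Wdr3 with Spag17 (15.7%), Bysl with Ccnd3 (9.37%) and Nop14 with the antisense gene Gm15522 (5.28%), each on the opposite strand. The strand setting of the counting was not given in the sources used here, so reads of such partners cannot be told apart. Processed pseudogenes of at least 95% identity over at least 200 bases exist for Ddx21, Nop56, Npm1, Pes1 and Wdr12, whose values are to that extent uncertain. The copy of Npm1 with the most counts, Gm14681, had 91, 71 and 99 counts in pMIR-Sox2 libraries, against 163, 141 and 125 counts in pMIR libraries, beside 30653, 27752 and 32870 counts of Npm1 in pMIR-Sox2 libraries and 61640, 42635 and 45756 in pMIR libraries. Of 21 small nucleolar RNA genes that lie inside 7 of the 41 genes, 5 had any count, with 9 counts summed over the pMIR-Sox2 libraries and 40 over the pMIR libraries, so the small RNAs themselves had hardly any counts.

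The libraries held 17153805 to 20770447 gene counts in pMIR-Sox2 and 21421769 to 27692437 in pMIR, and the 41 genes had 323 to 64576 counts each per library, so counting error was small beside the spread between replicates (biological coefficient of variation 14.4%). Sox2 read 989, 786 and 624 CPM in pMIR-Sox2 cells, against 0.738, 0.334 and 1.78 CPM in pMIR cells, as labelled. Among pMIR-Sox2 libraries it was highest in replicate 1 and lowest in replicate 3. B cell markers summed to 2561 to 3141 CPM in pMIR-Sox2 and 3790 to 4825 CPM in pMIR libraries, with 5 of 8 fallen, Pax5 and Ebf1 risen and Cd79a not passing. Plasma cell markers summed to 494 to 575 CPM in pMIR-Sox2 and 902 to 1094 CPM in pMIR, with 3 of 5 fallen and Prdm1 risen. One of these falls, Xbp1 (edgeR adjusted p = 0.04997), had overlapping groups and lost its call under 7 of 12 alternative settings. Of 8 T cell markers, Lck and Cd247 were tested and did not pass (with the replicate block 1 rose and 1 fell), and the sum was 45.0 to 58.6 CPM in pMIR-Sox2 and 57.9 to 62.3 CPM in pMIR, nearly all of it Lck. Of 8 myeloid markers, Emr1, Itgam and Lyz2 rose, with sums of 29.7 to 36.4 CPM in pMIR-Sox2 and 18.4 to 21.7 CPM in pMIR and S100a8 and S100a9 at 0. Of 5 NK markers, Klrd1 rose, with sums of 3.48 to 8.11 CPM in pMIR-Sox2 and 0.295 to 0.620 CPM in pMIR and Ncr1 at 0. Of 6 erythroid markers, Hbb-b2 rose, with sums of 1.56 to 2.81 CPM in pMIR-Sox2 and 0.811 to 1.06 CPM in pMIR and Hbb-b1, Hba-a1 and Hba-a2 at 0. The part of these marker levels in the fall of the biogenesis genes was not tested. Mitochondrial genes took 3.23% to 4.24% of gene counts in pMIR-Sox2 and 3.23% to 4.35% in pMIR.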

How the data were processed

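Total RNA of 3 pMIR-Sox2 and 3 pMIR libraries was sequenced. The authors deposited raw counts per gene, made with Trimmomatic 0.32, TopHat2 2.0.11, Bowtie2 2.2.2, SAMtools 0.1.19 and HTSeq 0.6.1p1 on mm9, per the submitters' processing notes. Closing lines that name no gene (reads not unique, not aligned, ambiguous or outside features) held 46.8% to 48.1% of the total and were left out.

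From these counts, genes passing filterByExpr were scaled by TMM and tested with edgeR 4.0.16 (R 4.3.3, quasi-likelihood, robust), without a block, with Benjamini-Hochberg adjustment over 12899 genes and a threshold of 0.05. The SE is the log2 fold change over the root of F. Reads inside repeats and copies depend on how non-unique reads were dropped. Alternatives were library totals only, DESeq2 size factors, no filter, the DESeq2 1.42.0 Wald test, limma-voom (limma 3.58.1), a replicate block and each library left out. The test was checked on simulated counts, where small fold changes were recovered less often than large ones, so a missed call does not show that a gene did not differ.

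The 42 genes, the lists and the markers were chosen with earlier results of these data known. Full values go, in each step, to the 2 genes of lowest adjusted p, the one of highest CPM per kb and each that did not pass (2 more in the largest step); other members are given as values. Of each further list, the 2 genes of lowest adjusted p and up to 2 called against the majority are given. Maf1, Gnl3l, Rpl28 and the genes of the marker lists are named to complete a count. Cirh1a, Pwp2, Utp18, Utp6, Tbl3 and Nhp2l1 are named beside members of the same subcomplex or particle. Values of 2 genes of the further lists are not reported here.

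Libraries of the same number share a number in the labels' descriptions. Their deviations from the group means correlated (r = 0.242, 0.359 and 0.189 for pairs 1, 2 and 3). Between libraries of different numbers r ran from −0.241 to 0.0341. Because each group was centred on its own mean, a positive r within a pair tends to lower the others, so this contrast is partly built in. The shared numbers were taken as a possible pairing. The reported fit does not use this pairing, and the replicate block is given as an alternative. Near copies were found with BLAST 2.17.0 on GENCODE M21 transcripts, and coordinates and promoters are those of RefSeq on GRCm38.p6, not of mm9.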

Additional observations from a re-analysis of the deposited data

How the results depend on the processing

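The count of biogenesis genes that fell was 40 in the reported fit, 39 with library totals only, 40 with DESeq2 size factors, 37 with no filter, 40 by the DESeq2 Wald test, 40 by limma-voom and 41 with the replicate block, and it ran from 32 (without pMIR replicate 1) to 41 when 1 library was left out. Their median log2 fold change was −0.74 with library totals only, −0.84 with the replicate block, and −0.94 to −0.66 with 1 library left out. All 41 log2 fold changes stayed below 0 under the 12 alternatives, 30 of the 40 falls kept their call under all of them, and none of the 41 moved by over 1.5-fold. With no filter, Utp20 (adjusted p = 0.157), Rrp12 (0.0659) and Gnl3 (0.093) lost their calls. Utp20 also lost its call without pMIR replicate 1 or 3. The replicate block added the call of Ddx10 and changed no other call of a biogenesis gene. With it, falls numbered 7 among other polymerase I genes, 6 among other snoRNP genes, 36 among other small subunit factors, 29 among other large subunit factors (2 rises), 9 in the exosome, 7 in polymerase III (4 rises), 7 in polymerase II, 5 among snoRNA hosts, 4 in the MYC network (2 rises) and 3 among ribosomal proteins. When 1 library was left out, falls among other small subunit factors ran from 21 (without pMIR replicate 1) to 34 (without pMIR-Sox2 replicate 3). Those among other large subunit factors ran from 23 to 29 in the same 2 fits. Over all genes, 53.7% of calls were rises, and 62.4% with library totals only, which moved the median of all genes to 0.06. Depth does not limit these genes, but 3 libraries per group limit the size of change that can be called, and sampling of separate mice is not stated.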
